A study of Mus musculus with 3 samples.

Results

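Cluster 10 of the mouse pituitary holds the Sox2+ Sox9+ pituitary stem cells, the epithelial cells from which the hormone-producing cells of the gland arise. Its members were the cells to which the authors' barcode table gives cluster number 10, and the expression values were the authors' counts summed over those cells in each genotype. There were 1037 such cells among 37474, 415 of 13413 in TpitKO, 358 of 12839 in TpitHT and 264 of 11222 in TpitWT pituitaries. The genotypes are written KO, HT and WT here. Each was measured as 1 library of dissociated pituitary cells from which dead cells had been sorted out with propidium iodide. The gene Tbx19 codes for Tpit, a T-box transcription factor. The number, age and sex of the mice, the way the allele was made and the meaning of HT are not given in the sources used here.

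Pituitary stem cells line the cleft between the lobes of the gland and lie in small clusters within the anterior lobe. They carry the transcription factors Sox2 and Sox9, make retinoic acid, keep epithelial junctions and divide rarely in the adult. Tpit acts downstream of them: it commits precursors to the corticotrope and melanotrope lineages and switches on Pomc, the gene of the precursor of adrenocorticotropic hormone and melanocyte-stimulating hormone. Setting cluster 10 of KO beside that of HT and WT asks what the stem cells express where the Tpit gene is disrupted.

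Cluster 10 gave 2434904 counts in KO, 2401769 in HT and 1478329 in WT, a mean of 5867, 6709 and 5600 counts per cell. With 1 library per genotype no difference could be set against variation between animals, so no test was run and every interval is an exact 95% interval for counting error. Counts come clustered in cells, which makes these intervals too narrow for levels and ratios. Levels are counts per 1000000 counts of the cluster (CPM), and log2 ratios were taken after adding 10 CPM to both values. A count of 0 was read as up to 3 counts, which is 1.23 CPM in KO, 1.25 CPM in HT and 2.03 CPM in WT. Mitochondrial genes took 2.28%, 2.12% and 2.20% of the counts in KO, HT and WT. Of all barcodes 115 occurred in more than 1 library, and 0 of these lay in cluster 10. Endothelial, macrophage, lymphocyte and red cell marker lists had 0 genes with enough counts to compare. The 8 endothelial markers summed to 26.3, 7.08 and 24.4 CPM in KO, HT and WT, against 8602, 9994 and 7856 CPM in the endothelial-like cluster 9. The 8 macrophage markers summed to 5.75, 49.96 and 27.1 CPM, against 21063, 21400 and 18287 CPM in the macrophage-like cluster 8.

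The defining markers were present at high levels in all 3 libraries and the label held against them. Sox2, the stem cell transcription factor on chromosome 3 (GRCm38 chr3:34650405-34652461, plus strand), was at 606 CPM in KO, 505 CPM in HT and 568 CPM in WT. Its counts came from 81.0%, 83.0% and 82.2% of the cells. Sox9 (chr11:112782224-112787760, plus strand) was at 460, 355 and 403 CPM in KO, HT and WT. These 2 factors stood within 1.296-fold between any pair of genotypes, with KO highest for both.

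The other given markers were lower in KO than in HT, each by less than 2-fold. Aldh1a2, which makes retinoic acid (chr9:71215789-71296243, plus strand), was at 356, 458 and 390 CPM in KO, HT and WT. Cyp2f2, a cytochrome P450 (chr7:27119909-27133660, plus strand), was at 433, 581 and 662 CPM, a KO over WT ratio of 0.654 (0.599 to 0.715). Cells with a Cyp2f2 count made up 60.2%, 66.5% and 74.2%, so both its level and its share of cells were lowest in KO. Rbpms, an RNA-binding protein (chr8:33782643-33929863, minus strand), was at 2006, 2607 and 2462 CPM, a ratio of 0.815 (0.780 to 0.851). Mia, a small secreted protein (chr7:27179742-27181157, minus strand), was at 3960, 5486 and 4575 CPM, a ratio of 0.865 (0.839 to 0.893). The predicted gene Gm21983 overlaps Mia on the same strand and had nearly the same level, 3897, 5406 and 4518 CPM, so their counts cannot be told apart.

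**Figure D1:**
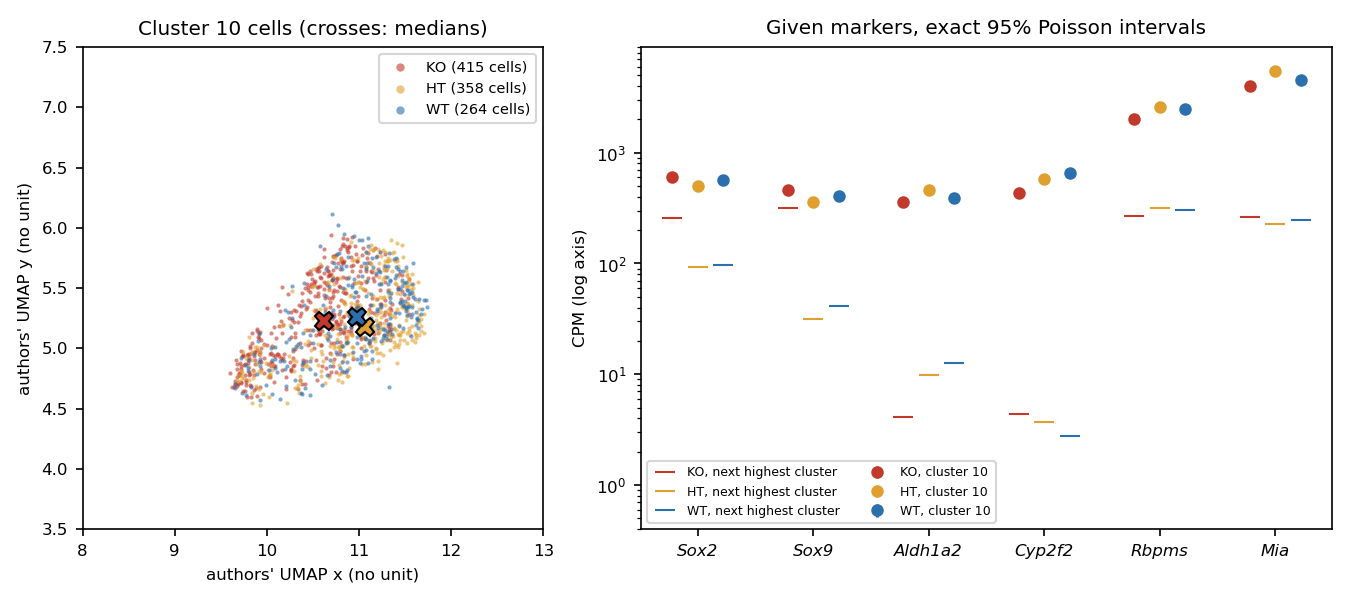
Left, position of each cluster 10 cell on the authors' UMAP map (no unit), by genotype, with crosses at the medians; the x medians are 10.6 in KO, 11.06 in HT and 10.98 in WT, and a few outlying cells lie off the panel. Right, level of each given marker in CPM on a log axis, with exact 95% Poisson intervals, in cluster 10 of KO, HT and WT and in the next highest cluster of at least 50 cells; every marker is higher in cluster 10, by the least for Sox9 in KO.

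Among clusters of at least 50 cells, cluster 10 had the highest levels of the genes named here in each library. Since the clusters were made from the same values, these levels describe the cluster and were not tested. Ranked by the lowest ratio to the next highest cluster over the 3 libraries, the leading genes were Cyp2f2, Lcn2, Aldh1a2, Mia, Mpzl2 and Agr3. Lcn2, which codes for a secreted lipocalin that binds bacterial iron carriers, was at 729, 1712 and 1610 CPM in KO, HT and WT, and the next cluster had 31.3, 24.5 and 9.17 CPM. Mpzl2, an epithelial adhesion protein, was at 270, 206 and 227 CPM, and Agr3, a protein disulfide isomerase relative, at 222, 173 and 149 CPM. Folr1, a folate receptor, was found in 90.8%, 88.5% and 90.5% of the cells at 734, 732 and 653 CPM. Secreted signals on the list were Sfrp5, a Wnt antagonist, at 186, 149 and 87.3 CPM, and Inhba, the activin A subunit, at 123, 111 and 73.7 CPM. Hey1, a Notch target, was at 156, 200 and 222 CPM, the cadherin Cdh26 at 109, 58.7 and 89.3 CPM, and the interleukin 17 family receptor Il17re at 105, 106 and 83.9 CPM. The other genes among the leading 20 were Gm21983, Cpxm2, Otud1, Rbpms, Slc16a11, Krt18, Gm9347 and Msx1, with the homeobox gene Msx1 at 628, 602 and 662 CPM.

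Cluster 18, which held 107 cells in KO, 2 in HT and 9 in WT, shared part of this profile. In KO its Sox2 was at 257 CPM, its Sox9 at 318 CPM, Mia at 264 CPM and Rbpms at 132 CPM, while Aldh1a2 was at 4.08 CPM and Cyp2f2 at 1.36 CPM. In KO it was the next highest cluster for Lcn2, Aldh1a2, Mia, Gm21983, Sfrp5, Cpxm2, Hey1 and Gm9347, each at a lower level than cluster 10. Across 8997 genes the KO profile of cluster 10 correlated most with that of cluster 18 (Pearson r = 0.809), followed by clusters 15 (0.789) and 11 (0.782). These are correlations across genes within 1 library, where genes are not independent and free RNA is shared, and they serve as a description.

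The share of cluster 10 among all cells was highest in KO. It was 3.09% in KO (2.81 to 3.40), 2.79% in HT (2.51 to 3.09) and 2.35% in WT (2.08 to 2.65), a KO over WT ratio of 1.32 (1.12 to 1.54) and an HT over WT ratio of 1.19 (1.01 to 1.39). Cluster 7 had the highest Pomc level, 223310 CPM in HT and 195848 CPM in WT. KO held 0 cells of clusters 6 and 7, which raises all its other shares. With clusters 6 and 7 set aside the shares were 3.09% in KO, 3.23% in HT and 2.81% in WT, a KO over WT ratio of 1.10 (0.943 to 1.29). With clusters 5, 6, 7, 11 and 18 set aside the ratio was 1.47 (1.26 to 1.72). Taken among clusters 8, 9, 10, 15, 18 and 19 only, it was 0.814 (0.696 to 0.953). The direction and size thus depend on the base chosen.

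Transcripts of dividing cells were scarce in every library. Mki67, a proliferation antigen, had 1, 0 and 2 counts in KO, HT and WT, and Top2a, the topoisomerase of dividing cells, had 1, 3 and 19 counts in 1, 2 and 3 cells. Of 18 cell cycle genes 2 had at least 50 counts in KO and WT together, Pcna at 37.8, 44.6 and 52.1 CPM and Tyms at 21.4, 18.3 and 25.03 CPM. Neither reached a log2 ratio of 1 in size. Of the D cyclins, Ccnd1 was at 262, 201 and 235 CPM and Ccnd2 at 301, 295 and 317 CPM. Of 10 D cyclin and cell cycle inhibitor genes with enough counts, 2 were above 0 in KO over WT, with a list median of -0.27 (-0.07 with at least 200 counts required). Cdkn1a was at 16.02, 33.7 and 34.5 CPM and Cdkn2c at 25.9, 32.1 and 49.4 CPM, the lowest level of both lying in KO.

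The pituitary and stem cell transcription factors differed little between genotypes. Of 27 listed stem cell genes 20 had at least 50 counts in KO and WT together, 0 had a log2 ratio of 1 or more in size, and 11 were above 0, with a median of 0.06 (0.16 with the lower mean count per cell of clusters 8 and 9 subtracted as free RNA). Over all 8997 genes with enough counts the median was 0.01 and 51.1% were above 0. Only 0.456% of them had a log2 ratio of 1 or more in size, so 0 of 20 is near the share over all genes. The homeobox gene Six6 was at 365, 368 and 391 CPM in KO, HT and WT. Lhx3, a factor of early pituitary fate, was at 122, 120 and 163 CPM. Gfra2 and S100b, used as stem and folliculostellate cell markers, and Gfra3 had at most 1 count in any library.

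Ednrb, the endothelin B receptor, had the largest positive log2 ratio of the list. It was at 469 CPM in KO, 273 CPM in HT and 277 CPM in WT, a KO over WT ratio of 1.69 (1.51 to 1.90) and a KO over HT ratio of 1.72 (1.56 to 1.90). It was found in 73.3%, 58.9% and 56.4% of the cells, so KO stood above HT and WT, which were close in level (HT over WT 0.983, 0.868 to 1.12). Klf4, a factor of epithelial and pluripotent cells, was at 281, 169 and 206 CPM, again highest in KO. Fstl1, a secreted follistatin relative, was at 82.1, 148 and 141 CPM, the largest negative ratio of the list (0.584, 0.478 to 0.712).

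Most genes listed as factors of lineage commitment had few counts. Of 14 listed, 5 had enough counts, 0 of the 5 were above 0 in KO over WT, and their median was -0.49 (-0.10 with no filter on counts), while in HT over WT it was -0.68. Pou1f1, the factor of somatotropes, lactotropes and thyrotropes, was at 31.2, 26.2 and 48.0 CPM in KO, HT and WT, and Dlk1 at 178, 174 and 258 CPM. WT was highest for both, and HT was as low as KO. The mean Pou1f1 counts per cell were 1.06, 1.01 and 1.29 times the lower of clusters 8 and 9 of the same library, clusters that should lack it. Of the 5 genes, Insm1 and Isl1 stood over 3 times that lower mean in WT. The other 3, Pou1f1 and Dlk1 among them, did not. Tbx19 itself had 1 count in KO, 0 in HT and 6 in WT, too few to compare. Which stretch of the gene the allele changes is not given in the sources used here, so these counts do not check the genotype.

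Pomc, the hormone precursor of corticotropes and melanotropes, was also read in the cluster. It had 14 counts in KO, 2109 in HT and 2928 in WT, which is 5.75, 878 and 1981 CPM, with counts in 2.41%, 96.9% and 92.8% of the cells. Those levels were 0.745, 1.05 and 1.81 times the mean per cell of the lower of clusters 8 and 9, and the KO over WT log2 ratio was -6.98 in cluster 10 and between -7.29 and -2.78 in 6 other clusters. The hormone genes together took 4.14%, 4.78% and 5.48% of cluster 10 counts, against 5.51%, 5.28% and 13.8% in cluster 9. Prl was at 12105, 5034 and 8765 CPM and the gonadotropin subunit Cga at 6523, 4094 and 4389 CPM, in 98.9% to 100% of cells. Free RNA, doublets and expression in the cells themselves cannot be told apart in these sums. A gene was named between genotypes only where its mean counts per cell in the higher genotype were over 3 times the lower mean of clusters 8 and 9, called the free RNA level here. For a gene that clusters 8 and 9 themselves express, that level can hold their own RNA as well as free RNA.

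Between KO and WT, 8997 genes had at least 50 counts in both libraries together. Of these 25 (0.278%) were higher in KO by a log2 ratio of 1 or more, the size limit, and 16 (0.178%) were lower, 41 (0.456%) in all. HT and WT lay closer, with 10 genes (0.113%) higher and 9 (0.102%) lower of 8834, 19 (0.215%) in all, and 49.5% of log2 ratios above 0. Between KO and HT 14 of 9715 genes (0.144%) were higher and 23 (0.237%) lower, 37 (0.381%) in all, and 53% of log2 ratios were above 0. The 3 comparisons share libraries. The same count for KO over WT was 0.127% in cluster 0, 0.382% in cluster 1, 0.455% in cluster 3, 0.089% in cluster 4, 1.18% in cluster 8 and 2.15% in cluster 9, clusters that differ in cell number and depth. Cluster 10 thus lay within the range of the others. HT lay between KO and WT for 22 of the 25 higher and 10 of the 16 lower genes. Picking genes for a difference between KO and WT in itself favours a place between them for HT. These counts therefore do not show grading by genotype.

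**Figure D2:**
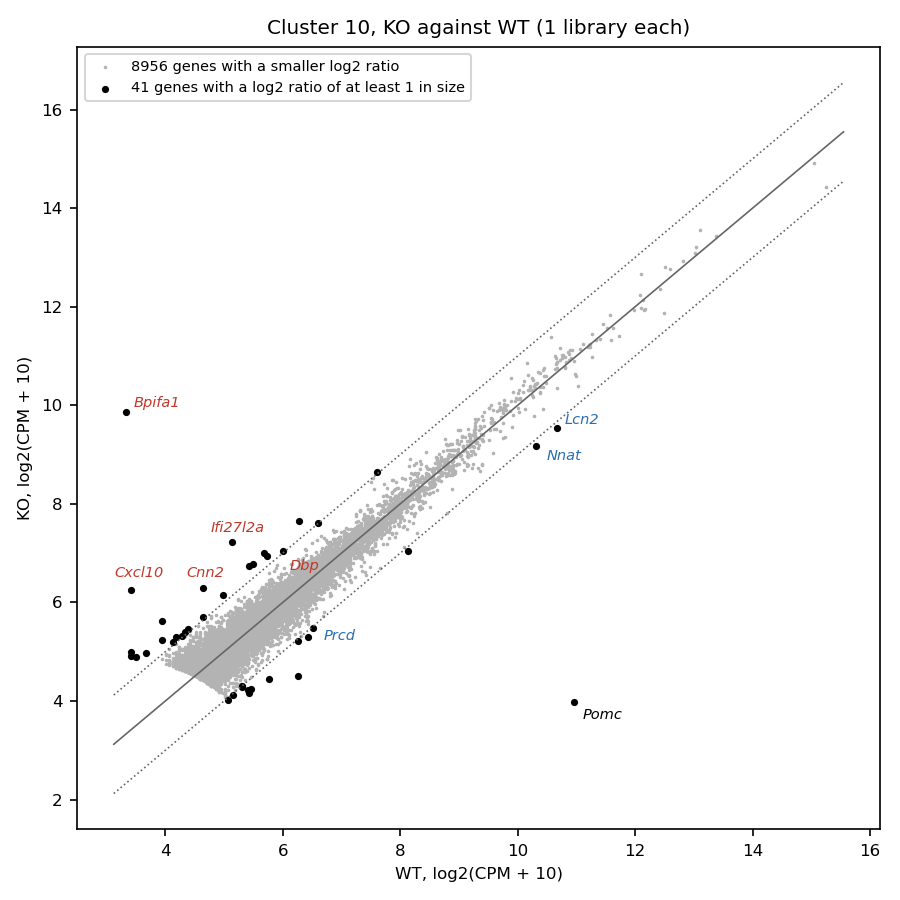
Each point is a gene of cluster 10 with at least 50 counts in KO and WT together, with its level as log2(CPM + 10) in KO on the y axis and in WT on the x axis, both log scales. The 41 genes drawn in black have a log2 ratio of 1 or more in either direction; Bpifa1 stands far above the diagonal and Pomc far below it, and most others are low genes near the size limit.

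The genes named below met the size limit against WT, differed from HT the same way by a log2 ratio of 0.5 or more, had 20 CPM in KO or WT, and passed the free RNA level. There were 11 higher and 7 lower in KO, and 10 of the 11 are described. The rule itself makes KO the highest library in level for the 11 and the lowest for the 7.

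Cytoskeletal and matrix genes were among those higher in KO. Cnn2, an actin-binding calponin, had 167, 62 and 22 counts in 95, 33 and 16 cells of KO, HT and WT, or 68.6, 25.8 and 14.9 CPM, a ratio of 4.61 (2.95 to 7.55). Tagln, an actin-binding protein of smooth muscle, had 95, 42 and 8 counts in 24, 19 and 3 cells, or 39.0, 17.5 and 5.41 CPM, a ratio of 7.21 (3.51 to 17.2). Mgp, a matrix protein that limits calcification, was at 27.9, 14.2 and 5.41 CPM, a ratio of 5.16 (2.48 to 12.4). In these 3 genes HT stood between KO and WT. Tagln and Mgp were highest in cluster 15, Mgp at 4640, 2937 and 3294 CPM, and the part of RNA from those cells was not tested. Of 8 fibroblast and mural markers, only Col1a2 had over 2 counts in any library, at 49.3, 72.0 and 52.1 CPM, lowest in KO. Acta2, a smooth muscle actin gene outside that list, ran the other way, at 17.2, 5.00 and 4.06 CPM. Its 42, 12 and 6 counts lay in 12, 7 and 2 cells, too few to pass the count filter in KO and WT together.

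Timp4, an inhibitor of matrix metalloproteinases, had 274, 128 and 64 counts in 97, 45 and 29 cells of KO, HT and WT. Its level was 113, 53.3 and 43.3 CPM, a ratio of 2.60 (1.97 to 3.47). No other cluster of at least 50 cells exceeded 6.11 CPM, so Timp4 was near 0 elsewhere and highest in KO within cluster 10. Col12a1, a fibril-associated collagen, was at 32.4, 7.08 and 10.1 CPM, a ratio of 3.20 (1.83 to 5.98), from 34, 13 and 8 cells. The wider lists differed less: 11 of 16 extracellular matrix genes were above 0 in KO over WT (median 0.14), and 15 of 22 junction and keratin genes (median 0.14). With the free RNA level subtracted these medians were 0.29 and 0.23, and the matrix median was 0.04 with no filter on counts. Epcam, an epithelial adhesion protein, was at 1563, 1241 and 1149 CPM, Cldn6 at 43.5, 33.3 and 18.9 CPM, and Cldn10 at 89.9, 139 and 154 CPM. These claudins, both tight junction proteins, thus stood in opposite order.

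Dbp, an output gene of the circadian clock, had 295, 131 and 80 counts in 129, 70 and 41 cells of KO, HT and WT. Its level was 121, 54.5 and 54.1 CPM, a KO over WT ratio of 2.24 (1.74 to 2.90). HT and WT were close and KO was above both. Tgtp2, an interferon-inducible GTPase, was at 96.9, 44.1 and 33.1 CPM in 92, 51 and 33 cells, a ratio of 2.92 (2.14 to 4.06). Gnrhr, the gonadotrope receptor for gonadotropin-releasing hormone, was at 61.2, 36.2 and 21.6 CPM, a ratio of 2.83 (1.92 to 4.28). Its 149, 87 and 32 counts lay in 27, 13 and 10 cells, and cluster 3, which held 12.4%, 4.91% and 4.001% of all KO, HT and WT cells, had it at 1880, 1520 and 1478 CPM. The 7 gonadotrope markers summed to 7093, 4633 and 4977 CPM in cluster 10, and whether these counts come from joined cells was not tested.

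For 2 of the 11 genes the counts came from a handful of cells. Bpifa1, a secreted protein of airway lining, had 2257 counts in KO from 1 cell, 17 counts in HT from 1 cell and 0 counts in WT, or 927 and 7.08 CPM in KO and HT, at least 457-fold higher in KO than in WT. Klk1, a kallikrein protease, had 53, 5 and 1 counts in 6, 3 and 1 cells, a ratio of 32.2 (5.53 to 1295). These 2 describe single cells and not the population. The chemokine gene Cxcl10 likewise had 162, 0 and 1 counts, from 3, 0 and 1 cells.

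Lcn2, the second of the identity genes above, was the most abundant of the 7 lower in KO. It had 1775, 4111 and 2380 counts in 305, 328 and 236 cells of KO, HT and WT, which is 73.5%, 91.6% and 89.4% of the cells. Its level was 729, 1712 and 1610 CPM, a KO over WT ratio of 0.453 (0.426 to 0.482) and a KO over HT ratio of 0.426 (0.403 to 0.450). HT and WT were close and KO stood below both, in level and in share of cells.

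Prcd, Aox1 and Alox15 were also lowest in KO. Prcd, a small membrane protein known from photoreceptors, was at 34.9, 94.1 and 81.2 CPM in KO, HT and WT, a ratio of 0.430 (0.322 to 0.573), in 55, 117 and 69 cells. Aox1, an aldehyde oxidase, was at 27.1, 59.96 and 66.3 CPM, a ratio of 0.409 (0.295 to 0.564). Alox15, a lipoxygenase, had 21, 75 and 48 counts in 15, 39 and 29 cells, or 8.62, 31.2 and 32.5 CPM, a ratio of 0.266 (0.151 to 0.452). Outside cluster 10 Alox15 was at most 2.93 CPM in any other cluster of at least 50 cells. Sparcl1, a matricellular protein, was at 7.80, 26.2 and 33.1 CPM, a ratio of 0.235 (0.131 to 0.407), and cluster 15 or 7 had 440 to 496 CPM. Ramp1, an accessory subunit of the calcitonin gene-related peptide receptor, was at 9.04, 41.2 and 33.8 CPM, a ratio of 0.267 (0.154 to 0.449). Kcna5, a voltage-gated potassium channel, was at 9.45, 24.6 and 29.8 CPM, a ratio of 0.317 (0.183 to 0.537). For all 7, KO was the lowest library, as the naming rule required.

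Most of these genotype differences had no like-sized counterpart in the 6 other clusters with at least 100 cells in every library (0, 1, 3, 4, 8 and 9). Of the 18 named genes, 3 had a log2 ratio of 1 or more in the same direction in any of them: Gnrhr in cluster 9 (1.09), Dbp in cluster 8 (1.48) and Prcd in cluster 3 (-1.19). Timp4 lay between -0.01 and 0.16 there and Alox15 between 0 and 0.01, levels at which the gene was near 0 in both genotypes. Bpifa1 lay between 0 and 0.03. With 10 CPM added, any gene near 0 in a cluster has a log2 ratio near 0 there. A missing counterpart thus does not make a difference particular to cluster 10. Clusters 18, 15 and 11, closest to cluster 10 in KO profile, held 9, 57 and 53 WT cells and were not compared. Kcna5 had the same sign in all 6 clusters, between -0.37 and -0.02. The neuronatin gene Nnat, by contrast, was lower in KO in every cluster compared. It was at 571, 550 and 1263 CPM in KO, HT and WT of cluster 10, where KO and HT were close, and its log2 ratio KO over WT was -1.13 there and -2.13 to -0.60 in the other 6. Its counts per cell in cluster 10 were 1.72, 1.47 and 2.03 times the free RNA level.

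**Figure D3:**
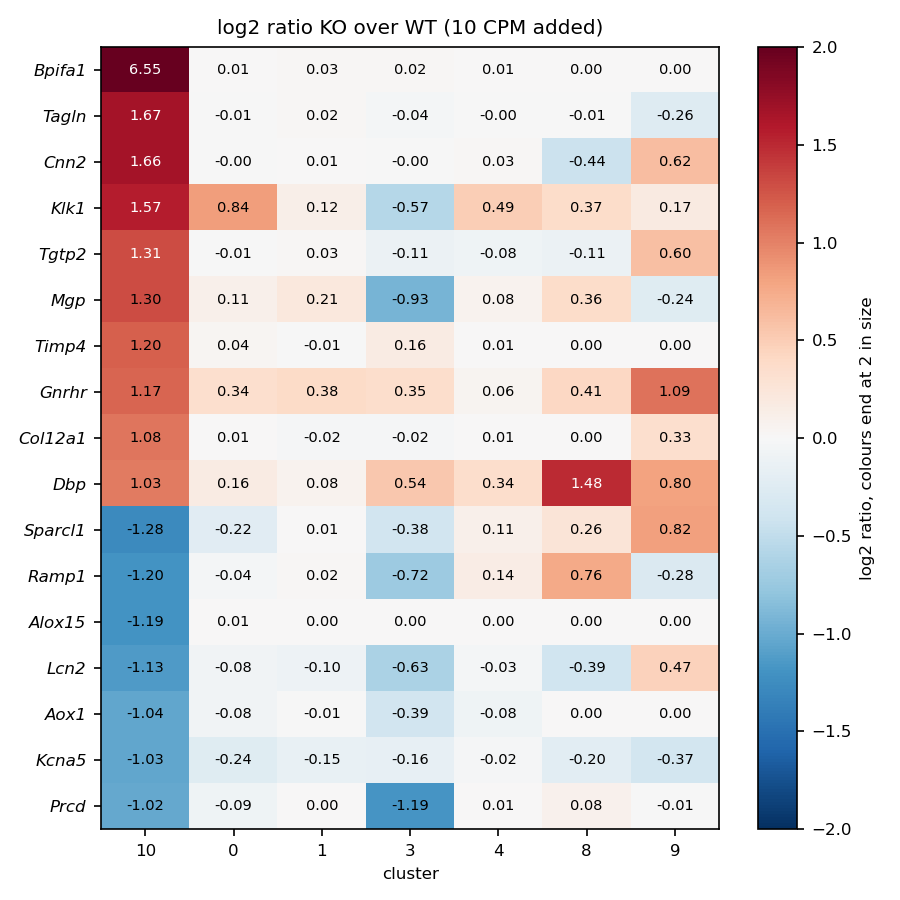
Colour gives the log2 ratio KO over WT (10 CPM added) of each described gene, in rows, in cluster 10 and in the 6 other clusters compared, in columns. The genes are strongly coloured in cluster 10 and pale in most other clusters, with Dbp in cluster 8 (1.48) and Prcd in cluster 3 (-1.19) among the exceptions.

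Some genes past the size limit against WT were set apart because KO differed from HT by a log2 ratio under 0.5. Ifi27l2a, a small interferon-inducible protein, was at 139, 98.7 and 25.03 CPM in KO, HT and WT, a KO over WT ratio of 5.56 (3.96 to 8.04) and an HT over WT ratio of 3.94 (2.78 to 5.74). Sfrp5, the Wnt antagonist of the identity list, was at 186, 149 and 87.3 CPM, in 45.8%, 41.3% and 25.4% of the cells, a KO over WT ratio of 2.13 (1.75 to 2.61). WT was the lowest library for both. Hsd11b1, which regenerates active glucocorticoid, was at 122, 174 and 270 CPM, a ratio of 0.453 (0.389 to 0.528), WT being the highest and HT lying between. Between HT and WT alone, 5 genes higher and 2 lower met the size limit and the free RNA level: Ifi27l2a (log2 ratio 1.63), Hspa1a (1.07), Nqo1 (1.06), Trim17 (1.04) and Arhgap42 (1.03) were higher in HT, and Nupr1 (-1.30) and Tnfrsf12a (-1.004) lower. The heat shock gene Hspa1a had 141, 236 and 107 CPM in KO, HT and WT, highest in HT.

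The interferon-stimulated genes, which answer to type I and II interferon, were above 0 in KO over WT throughout. Of 17 listed genes 12 had enough counts, all 12 had a log2 ratio above 0, and the median was 0.60, against 0.01 and 51.1% above 0 over all genes. In HT over WT 11 were above 0 with a median of 0.42, and in KO over HT 12 with a median of 0.14. Only Isg15 passed the size limit. The 4 members over 3 times the free RNA level were Ifitm2, Ifitm3, Gbp2 and Ifi27. The promoters of 3 members and of Tgtp2, chosen after their values were seen, are shown because they hold the core of the interferon-stimulated response element. They are RefSeq windows on GRCm38.p6, written 5′ to 3′ on the gene's strand from 250 bases before to 50 bases after the start, with matches to GAAA, any 2 bases and GAAA again, sought on both strands, in capitals.
Isg15: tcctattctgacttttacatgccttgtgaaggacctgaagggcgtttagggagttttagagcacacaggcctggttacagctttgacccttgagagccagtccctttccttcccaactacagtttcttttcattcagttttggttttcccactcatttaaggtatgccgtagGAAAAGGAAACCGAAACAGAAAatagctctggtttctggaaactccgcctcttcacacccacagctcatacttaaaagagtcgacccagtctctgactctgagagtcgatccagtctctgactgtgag
Bst2: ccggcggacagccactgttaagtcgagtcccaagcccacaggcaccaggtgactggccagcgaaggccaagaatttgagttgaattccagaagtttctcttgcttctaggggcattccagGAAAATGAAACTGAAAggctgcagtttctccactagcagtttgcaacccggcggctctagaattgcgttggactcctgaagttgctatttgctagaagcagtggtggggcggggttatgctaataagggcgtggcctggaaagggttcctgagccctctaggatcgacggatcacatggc
Ifitm3: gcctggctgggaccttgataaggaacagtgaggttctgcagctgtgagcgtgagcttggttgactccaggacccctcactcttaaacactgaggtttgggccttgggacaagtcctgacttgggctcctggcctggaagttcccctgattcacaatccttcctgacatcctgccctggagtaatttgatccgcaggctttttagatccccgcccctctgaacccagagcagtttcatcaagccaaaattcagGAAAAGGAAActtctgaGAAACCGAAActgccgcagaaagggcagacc
Tgtp2: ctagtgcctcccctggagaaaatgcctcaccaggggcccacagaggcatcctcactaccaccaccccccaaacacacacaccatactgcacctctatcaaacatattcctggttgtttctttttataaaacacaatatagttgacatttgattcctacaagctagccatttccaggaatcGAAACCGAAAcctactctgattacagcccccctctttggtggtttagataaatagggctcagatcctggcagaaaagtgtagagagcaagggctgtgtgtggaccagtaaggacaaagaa
The windows lie at chr4:156200769-156201068, chr8:71537423-71537722, chr7:141010695-141010994 and chr11:49064163-49064462, all on the minus strand, and hold 3, 2, 2 and 1 matches, some of which overlap. The motif occurred in 9 of the 15 listed genes with a window (60%) and in 3.99% of 27025 genes. A match of letters is a description and no evidence of binding.

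Isg15, a ubiquitin-like modifier, was at 119 CPM in KO, 79.1 CPM in HT and 41.3 CPM in WT, in 25.3%, 22.3% and 12.1% of the cells. The KO over WT ratio was 2.88 (2.18 to 3.86), but its counts per cell were 1.87, 2.20 and 1.54 times the free RNA level. In KO the interferon list summed to 4353 CPM in cluster 10, 5197 CPM in cluster 9 and 1650 CPM in cluster 8. For these genes that level can thus hold RNA made by clusters 8 and 9. Ifitm3, a membrane protein that blocks viral entry, was at 2653, 1874 and 1506 CPM, a ratio of 1.76 (1.68 to 1.85), and stood 7.02, 7.59 and 8.66 times above that level. Bst2, which tethers budding virus, was at 168, 152 and 106 CPM, and Oasl2, an oligoadenylate synthetase relative, at 43.1, 40.0 and 17.6 CPM. In each of these KO was highest and WT lowest, with HT between. The list median in KO over WT was 0.33 in cluster 9 and 0.32 in cluster 8, and -0.01 to 0.18 in clusters 0, 1, 3 and 4. The share of the cluster 10 difference that is free RNA from other cells was not tested. The MHC class I presentation list, also interferon-inducible, had 8 of 13 genes above 0 and a median of 0.11 (0 with the free RNA level subtracted), with H2-T23 at 93.2, 55.0 and 49.4 CPM and B2m at 705, 594 and 822 CPM. Of these 13 genes 0 were over 3 times the free RNA level. In KO the list summed to 4152 CPM in cluster 10, 11475 CPM in cluster 9 and 7953 CPM in cluster 8.

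**Figure D4:**
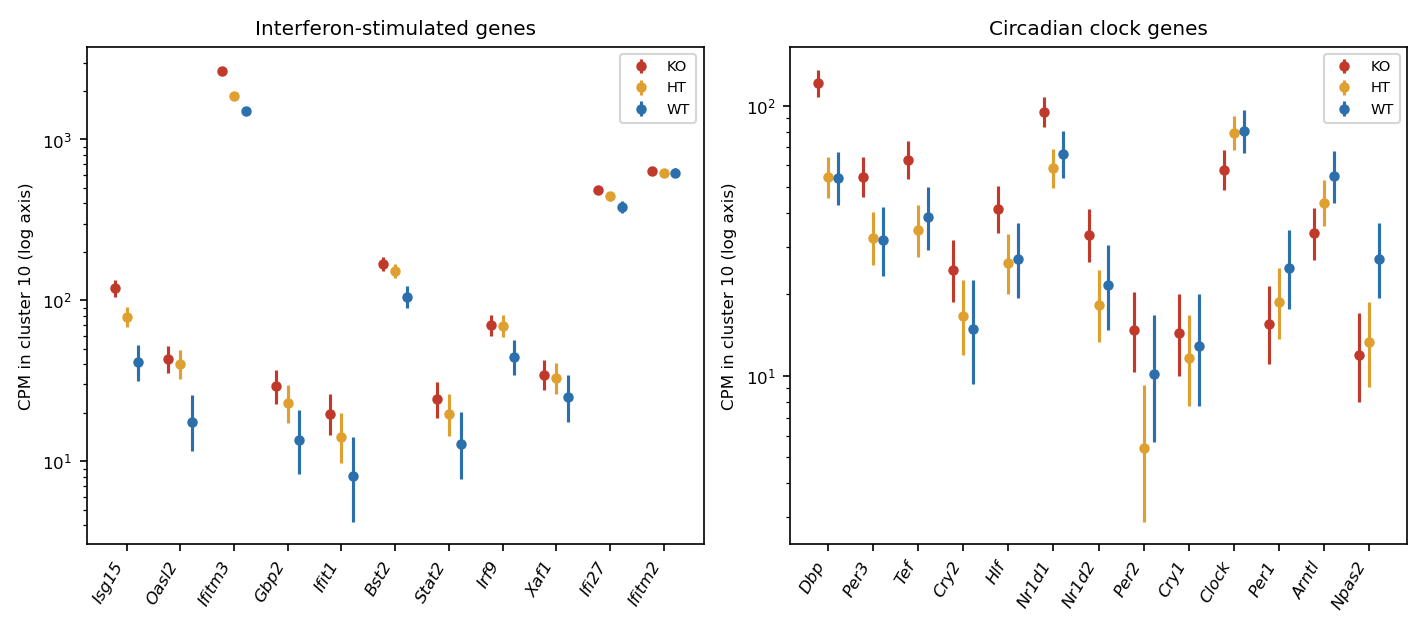
Levels in cluster 10 of KO, HT and WT, in CPM on a log axis with exact 95% Poisson intervals, of 11 of the 12 interferon-stimulated genes (left) and all 13 circadian clock genes (right) with enough counts. KO is the highest library for each interferon gene shown, while among clock genes Dbp, Per3 and Tef are highest and Arntl, Clock, Npas2 and Per1 lowest in KO.

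Most clock genes were above 0 in KO over WT. Of 13 clock genes with enough counts 9 were above 0 in KO over WT, with a median of 0.45, and 3 were above 0 in HT over WT, with a median of -0.12. Over all genes 51.1% were above 0 in KO over WT and 49.5% in HT over WT. Beside Dbp, the other PAR-domain factors Tef, at 62.8, 34.6 and 38.6 CPM in KO, HT and WT, and Hlf, at 41.5, 26.2 and 27.1 CPM, were higher in KO. The repressors Nr1d1, at 94.9, 58.7 and 66.3 CPM, and Per3, at 54.6, 32.5 and 31.8 CPM, were also higher. The activators of the loop were lower in KO: Arntl was at 33.7, 43.7 and 54.8 CPM, Clock at 57.9, 79.1 and 80.5 CPM, and Npas2 at 11.9, 13.3 and 27.1 CPM, the last with HT closer to KO than to WT. The repressor gene Per1 was lower too, at 15.6, 18.7 and 25.03 CPM. The list median was above 0 in 5 of the 6 other clusters too, from 0.08 in cluster 1, where the median of all genes was 0.09, to 0.47 in cluster 9, and was -0.41 over 3 genes in cluster 8. Time of day at dissection is not given in the sources used here and cannot be told apart from genotype.

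Glucocorticoid-responsive genes stood mostly below 0 in KO. Of 17 with enough counts 3 were above 0 in KO over WT, with a median of -0.33, and 2 were above 0 in KO over HT, with a median of -0.39. In HT over WT 10 were above 0, with a median of 0.04. Over all genes 51.1% were above 0 in KO over WT, 53% in KO over HT and 49.5% in HT over WT. The KO over WT median was -0.04 with the free RNA level subtracted, -0.18 with no filter on counts and -0.19 with at least 200 counts required. Tsc22d3, which codes for the leucine zipper protein GILZ, was at 103 CPM in KO, 245 CPM in HT and 158 CPM in WT, a KO over WT ratio of 0.651 (0.543 to 0.782). Fkbp5, a chaperone of the glucocorticoid receptor, was at 35.7, 68.3 and 56.8 CPM, a ratio of 0.629 (0.461 to 0.859). Sult1a1 was at 11.9, 42.1 and 44.6 CPM, the only member past the size limit, and the metallothionein Mt1 at 1569, 2584 and 1997 CPM. KO was lowest for each of these. Nr3c1, the receptor itself, was at 126, 97.4 and 124 CPM. Of the 17 genes 9 were over 3 times the free RNA level, Tsc22d3 and Mt1 among them, and Fkbp5 and Sult1a1 were not. The list median in KO over WT was -0.74 in cluster 8, -0.47 in cluster 9 and -0.12 to 0.00 in clusters 0, 1, 3 and 4.

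Among signalling pathways of the stem cell niche, list medians lay near that of all genes. Notch genes, 6 of 12 above 0, had a median of -0.00 (0.14 with the free RNA level subtracted), with Notch2 at 117, 123 and 131 CPM, its target Hes1 at 401, 433 and 400 CPM and the target Hey1 lowest in KO as given above. Wnt genes, 6 of 16 above 0, had a median of -0.08 (0.06 with the free RNA level subtracted, 0.11 with at least 200 counts required), and Sfrp5 was the only member past the size limit. Axin2, a general Wnt target, was at 12.7, 11.2 and 16.2 CPM and the stem cell receptor Lgr5 had 0 counts in every library. Hippo and YAP genes had a median of -0.09 (0.08 with the free RNA level subtracted), with Yap1 at 54.2, 62.5 and 58.2 CPM, and BMP and TGF-beta genes -0.01. Id1, a target of BMP signalling, was at 84.6, 179 and 161 CPM, lowest in KO, while Id4 was at 275, 244 and 199 CPM, highest in KO. Of 13 FGF, EGF and ERK genes 8 were above 0 (median 0.12, and -0.04 with no filter on counts), with the receptor Erbb3 at 32.9, 26.6 and 11.5 CPM. Dusp6, a feedback phosphatase of ERK, was at 29.2, 82.0 and 75.8 CPM, lowest in KO, but at or under 1.53 times the free RNA level in every library.

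Retinoid and detoxification genes were lower in KO more often than higher. Over all genes 51.1% were above 0 in KO over WT and 53% in KO over HT. Of 10 retinoid genes 3 were above 0 in KO over WT, with a median of -0.21. With at least 200 counts required the retinoid median was -0.63, over 3 genes. Aldh1a1, a retinal dehydrogenase, was at 77.2, 146 and 131 CPM in KO, HT and WT, a ratio of 0.588 (0.479 to 0.723). HT and WT were close, and KO was lower. The receptor gene Rarg ran the other way, at 29.2, 13.3 and 14.2 CPM. Of 19 detoxification genes 5 were above 0 (median -0.25), and 2 in KO over HT (median -0.21). The KO over WT median of the detoxification list was 0 with the free RNA level subtracted and -0.17 with no filter on counts. The glutathione transferase Gstm1 was at 1542, 2266 and 2027 CPM, and the antioxidant enzyme Prdx1 at 1290, 1651 and 1619 CPM.

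Stress and secreted factors showed single genes more than shared shifts. The immediate early and heat shock list, whose members react to tissue dissociation, had 12 of 22 genes above 0 and a median of 0.07 (-0.07 with the free RNA level subtracted), with Fos at 3195, 2977 and 2808 CPM in KO, HT and WT and Jun at 3611, 3278 and 3041 CPM. Hspb1, a small heat shock protein, was at 1328, 2409 and 2081 CPM, lowest in KO. S100a6, a calcium-binding protein, was at 360, 253 and 177 CPM in 62.2%, 57.8% and 44.7% of the cells, a ratio of 2.04 (1.77 to 2.35), with HT between KO and WT. Its list of S100 and annexin genes had 9 of 12 above 0 and a median of 0.11 (0.26 with the free RNA level subtracted). Igfbp5, an insulin-like growth factor binding protein and an abundant transcript of the cluster, was at 4009, 5108 and 4400 CPM, in 95.4%, 98.9% and 98.5% of the cells. The imprinted genes had 6 of 15 above 0 and a median of -0.15 (0.18 with the free RNA level subtracted), with Nnat the only one past the size limit.

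**Figure D5:**
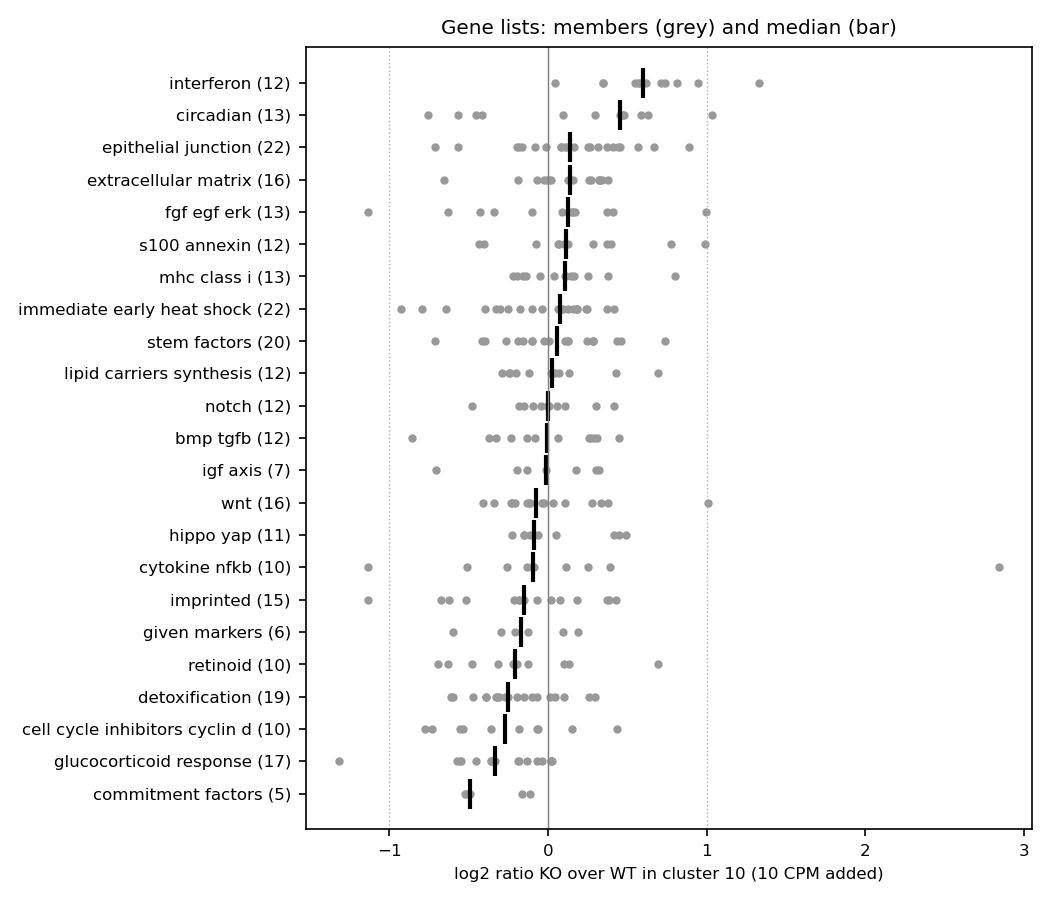
Log2 ratio KO over WT (10 CPM added) in cluster 10 for every gene list with at least 5 genes of enough counts, grey points for members and a bar for the median, with the number of genes in brackets. The interferon (0.60) and circadian (0.45) lists have the highest medians and the commitment factor list (-0.49) the lowest. Over 3 times the free RNA level were 4 of 12 interferon, 11 of 13 circadian and 2 of 5 commitment factor genes.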

How the data were processed

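Single-cell RNA-seq was done on dissociated pituitaries with Chromium 3′ chemistry, per the labels' protocols. Cell Ranger 5, Seurat 3.1 and DESeq2 are listed in the submitters' processing notes, as are the builds mm10 and GRCm38, but not the role of each. The authors deposited raw counts of every gene, added up within each genotype and cluster, 55403 gene rows for 61 combinations. Collapsing of reads to molecules is not given in the sources used here, so the values are called counts. A deposited table of the same sums scaled by 1 factor per combination was recorded as signal and used as an alternative. The numbers of cells with a count and the cluster of each barcode, recorded as other, and the UMAP positions, recorded as score, were also deposited by the authors. In all, 305 columns were not used.

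Rows with the same symbol were added, which merged 110 rows into 55293 symbols. Values per single cell were not used here, so thinning of cells to equal depth and doublet calling were not run, and doublets were treated only as the authors had done. Levels are CPM of the summed counts, with exact Poisson intervals, ratios have exact conditional binomial ones and shares Clopper-Pearson ones, at 95% and for counting error only. Genes needed 50 counts in the 2 libraries compared, and the size limit was a log2 ratio of 1 after adding 10 CPM, a 2-fold difference. Up to 12 genes each way were named by size for KO over WT and up to 5 for HT over WT, leaving out hemoglobin, predicted, sex-linked, ribosomal and mitochondrial genes. Identity genes were the 20 with the largest ratio to the next cluster and at least 50 CPM in every library. The free RNA level was the lower mean count per cell of clusters 8 and 9 of the same library. Where both of these clusters express a gene, subtracting that level can remove more than free RNA. The members and the 38 gene lists were chosen with earlier results of these data known. With 1 library per genotype there was no test. Alternatives used scaling factors of edgeR 4.0.16 and DESeq2 1.42.0 (R 4.3.3), and all other steps used Python 3.11.15 with pandas 2.3.3, numpy 2.4.6 and scipy 1.17.1. The scripts were tested on simulated data. Promoter windows came from RefSeq on GRCm38.p6, and gene coordinates from the deposited table. Some genes that met these rules or are on the lists are counted but not reported here.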

Additional observations from a re-analysis of the deposited data

How the results depend on the processing

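No paired analysis was possible because a single library stands for each genotype. The counts of genes past the size limit depended most on the pseudocount and on free RNA. With 1 CPM added in place of 10 CPM, 126 genes were higher and 85 lower in KO than in WT, and 80 higher and 52 lower in HT than in WT. With the free RNA level subtracted, the counts were 334 and 572 for KO and 285 and 332 for HT. With at least 200 counts required they were 10 and 5 for KO and 4 and 4 for HT. With no filter on counts, 27 were lower in KO, 16 higher in HT and 20 lower in HT. TMM and DESeq2 size factors each gave 5 genes lower in HT. The other values under these scalings, without hormone and mitochondrial genes, with the authors' scaled counts, and with at least 10 cells (added after seeing the data) were within 1.5 times of those reported. The share ratio of KO over WT was 1.10 outside clusters 6 and 7, and 1.47 outside clusters 5, 6, 7, 11 and 18. It was 0.814, reversed, among clusters 8, 9, 10, 15, 18 and 19. Of 133 values of the 18 named genes 4 moved, all with free RNA subtracted (among them Cnn2 3.34, Tgtp2 2.00 and Lcn2 -1.001 as log2 ratios), and 0 reversed. A log2 ratio under the size limit was found for 4 values of 3 genes. Among these, Dbp was at 0.982 with the authors' scaled counts and 0.972 with free RNA subtracted. Prcd was at -0.996 with free RNA subtracted. Of 205 list medians 27 moved by more than the standard error over the list's genes. In 10 lists 18 medians changed sign, and 4 others came to 0. The lists whose sign changed had medians of at most 0.152 in size as reported. The glucocorticoid median was -0.04 and the detoxification median 0 with free RNA subtracted. The cause of these shifts was not tested. A count of 0 limits a level to 1.23 CPM in KO, 1.25 CPM in HT and 2.03 CPM in WT.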

Other observations

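MHC class II genes, best known from antigen-presenting cells, were read in cluster 10 of all libraries. This list was chosen after its values were seen. Cd74, the invariant chain, had 742, 753 and 686 counts in 189, 164 and 139 cells of KO, HT and WT, or 305, 314 and 464 CPM. Cells with a count made up 45.5%, 45.8% and 52.7%, while spreading the same counts evenly would give 83.3%, 87.8% and 92.6%, so some cells held many counts and others none. H2-Aa was at 94.9, 115 and 168 CPM. Of 8 class II genes 7 had enough counts, 2 of the 7 were above 0 in KO over WT, and the median was -0.36. The 8 genes summed to 617, 638 and 903 CPM in cluster 10, 568, 341 and 792 CPM in cluster 9, and 57701, 52030 and 50174 CPM in cluster 8. Cx3cr1, a macrophage receptor, had 0, 7 and 1 counts in cluster 10, and the part of free RNA in the class II counts was not tested.

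Other genes of the cluster lay in fewer cells than even spread would give, also a choice made after the values were seen. Among 2602 genes with at least 100 counts in each library, the share of cells with a count was 0.781, 0.782 and 0.798 times the evenly spread share at the median in KO, HT and WT. For Tgfbr3l, a relative of the TGF-beta co-receptor, that ratio was 0.281, 0.189 and 0.268. For Rasl11a it was 0.550, 0.573 and 0.572. Ranked from the most uneven by the highest value over the libraries, Tgfbr3l was number 1, Chga 4, Id1 5 and Rasl11a 15. The gonadotropin subunit genes Fshb (0.409, 0.257 and 0.247) and Lhb (0.465, 0.404 and 0.292) were numbers 3 and 7. Joined cells, reads that were not collapsed to molecules and true differences between cells cannot be told apart here.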
